A study of Mus musculus with 12 samples.

Results

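The urea cycle converts ammonia, freed when amino acids are broken down, into urea for excretion, and the genes Cps1, Otc, Ass1, Asl, Nags, Slc25a15, Slc25a13, Glul and Gls2 are described here across brain and liver of mice with and without a vault RNA gene. A set of 10 genes of this pathway was chosen by name, of which these 9 are described, and each was found as 1 row among the 55450 genes of the count table. Total RNA was sequenced from 12 libraries in 4 groups of 3, made from the brains and livers of males, 7 to 9 weeks old, of the genotypes Vaultrc5+/+ (wild type, titled flx) and Vaultrc5-/- (knockout). Vaultrc5 encodes a small non-coding RNA of the vault particle. The comparisons ask whether loss of this RNA alters gene expression in either tissue. Strain, the method of deletion and the meaning of flx are not given in the sources used here, and the labels do not say whether libraries of a group came from separate animals, so p-values measure the spread between these libraries.

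In the classical pathway, ammonia and bicarbonate enter in the mitochondrion through carbamoyl phosphate synthetase (Cps1), which needs the N-acetylglutamate made by Nags. Otc then joins carbamoyl phosphate to ornithine, and Ass1 and Asl carry the nitrogen of aspartate through argininosuccinate to arginine in the cytosol. Slc25a15 brings ornithine back into the mitochondrion and Slc25a13 (citrin) exports aspartate. Around the portal vein of the liver lobule, the glutaminase Gls2 frees ammonia from glutamine beside the urea cycle enzymes, whereas glutamine synthetase (Glul), found in the hepatocytes around the central vein, captures what escapes. In brain, which has no complete urea cycle, Glul in astrocytes is the main route of ammonia fixation.

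On GRCm38 (GENCODE M21) all 9 are protein-coding genes. The mitochondrial enzymes are Cps1 (ENSMUSG00000025991.8, chr1:67123026-67231259, + strand), Otc (ENSMUSG00000031173.13, chrX:10252305-10321024, +) and Nags (ENSMUSG00000048217.11, chr11:102145513-102149477, +). The cytosolic ones are Ass1 (ENSMUSG00000076441.9, chr2:31470207-31520672, +) and Asl (ENSMUSG00000025533.15, chr5:130011258-130029247, -). The carriers are Slc25a15 (ENSMUSG00000031482.9, chr8:22375551-22398597, -) and Slc25a13 (ENSMUSG00000015112.15, chr6:6041218-6217173, -). The glutamine enzymes are Glul (ENSMUSG00000026473.15, chr1:153899944-153909723, +) and Gls2 (ENSMUSG00000044005.13, chr10:128194457-128210004, +).

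Library totals were 14844971 to 18567381 expected counts in brain and 23247449 to 27155480 in liver. Vaultrc5 had 33 to 48 counts in the wild-type livers, 1 to 4 in the wild-type brains and 0 in all 6 knockout libraries. The 5 hepatocyte markers (Alb, Apoa1, Serpina1a, Tat and Ahsg) summed to at least 44810 counts scaled to library size (CPM) in every liver library and to at most 1.01 CPM in any brain library. The 3 neuron markers (Snap25, Rbfox3 and Syt1) summed to at least 3171 CPM in brain and at most 26.2 CPM in liver.

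Promoter sequences are shown for 3 genes that stand for the contrast in brain: Otc and Nags, which had at most 1 count in any brain library, and Glul, which was abundant in both tissues. Each sequence is the 250 bases before the RefSeq start on GRCm38.p6, written 5′ to 3′ on the gene's strand, with CG dinucleotides in capitals.
Otc (chrX:10252055-10252304, + strand): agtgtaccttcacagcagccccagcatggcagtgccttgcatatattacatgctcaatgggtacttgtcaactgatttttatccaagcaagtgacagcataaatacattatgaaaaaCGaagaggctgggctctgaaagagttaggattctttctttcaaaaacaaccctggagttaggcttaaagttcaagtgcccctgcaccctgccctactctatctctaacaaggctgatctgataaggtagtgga
Nags (chr11:102145263-102145512, + strand): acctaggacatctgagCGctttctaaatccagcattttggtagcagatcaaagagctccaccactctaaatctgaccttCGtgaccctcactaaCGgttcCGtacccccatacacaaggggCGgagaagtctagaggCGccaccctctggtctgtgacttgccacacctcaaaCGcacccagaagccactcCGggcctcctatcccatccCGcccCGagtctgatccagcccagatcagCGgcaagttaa
Glul (chr1:153899679-153899928, + strand): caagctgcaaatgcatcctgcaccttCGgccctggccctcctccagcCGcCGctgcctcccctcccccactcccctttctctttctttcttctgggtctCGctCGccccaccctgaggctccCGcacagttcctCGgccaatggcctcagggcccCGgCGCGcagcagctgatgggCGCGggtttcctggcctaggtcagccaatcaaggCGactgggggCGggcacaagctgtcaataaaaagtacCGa
A window was found for 6 of the 9 genes. CG dinucleotides numbered 1 in the Otc window, 11 in those of Nags, Slc25a15 and Slc25a13, 15 in that of Glul and 23 in that of Ass1, against a median of 6 over 32851 windows. Thus Nags, with no reads in most brain libraries, had as many as Slc25a15 and Slc25a13, which were detected in all of them. The CCAAT sequence, searched on both strands, occurred in the Glul and Slc25a13 windows and in 33.8% of all windows, and TATAAA occurred in none of the 6 and in 12.4% of all windows.

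To compare genes with each other, levels were set per length as TPM, the share of transcripts scaled to a common sum, using the total length of the annotated exons. In wild-type liver Ass1 was highest at 1416 ± 402 TPM (SD, n = 3), and Cps1 followed at 1186 ± 178 TPM, with overlapping values. Glul came next at 453 ± 46.8 TPM and overlapped neither neighbour. Otc at 129 ± 12.7, Gls2 at 91.2 ± 24.7, Slc25a13 at 80.1 ± 7.46 and Slc25a15 at 79.0 ± 7.57 TPM formed a chain in which each overlapped its neighbour. Asl stood at 68.0 ± 6.66 TPM. Nags, which makes the activator of Cps1 and not an intermediate of the cycle, was lowest at 18.5 ± 3.42 TPM. With the longest transcript in place of all exons, Asl moved to 123 TPM, so the place of Asl in this order depends on the length used. The order in knockout liver was the same except that Slc25a15 and Slc25a13, which overlapped, changed places. Together the 9 genes took up 0.727% to 0.986% of the counts in wild-type liver and 0.601% to 0.885% in knockout liver, and Cps1 alone took up 0.286% to 0.473% over the 6 livers.

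**Figure D1:**
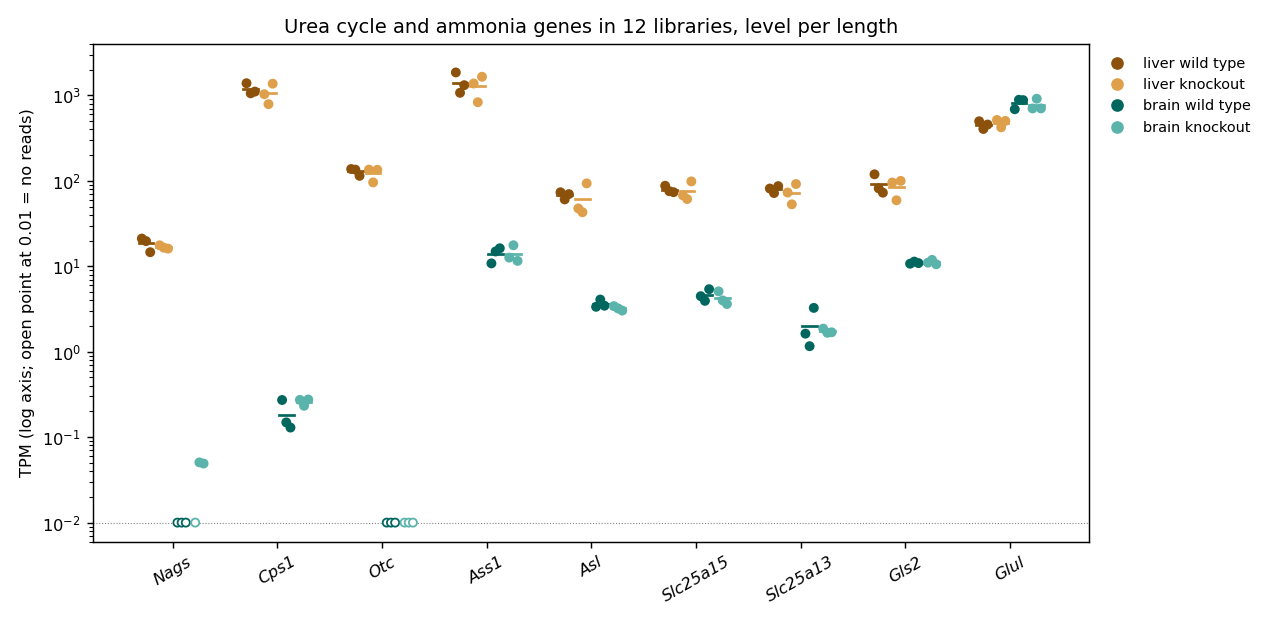
Level per length (TPM, log axis) of the 9 genes in each of the 12 libraries, with bars at the mean of 3 libraries where all had reads; open points at the bottom mark libraries with no reads. Glul is high in all 12 libraries, the other 8 genes are lower in every brain than in every liver library, and Otc has no reads in brain.

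The question of which steps are transcribed in brain was asked by comparing brain with liver among wild-type libraries and again among knockout libraries, 2 comparisons that share no library. All 9 genes were called lower in brain in both (edgeR quasi-likelihood test, Benjamini-Hochberg adjusted p under 0.05), where 34.7% of 18850 genes tested were called higher in wild-type liver and 35.2% of 18785 in knockout liver. For Glul this direction depends on the scaling, and 8 genes were called with library totals as the scale, where 21.2% of all genes were called higher in wild-type liver and 20.6% in knockout liver. In TPM, 8 of the 9 were lower in every brain than in every liver library of the same genotype, as 15.9% of genes were in the wild type and 15.5% in the knockout. Glul was the reverse, as were 73.2% and 72.1% of genes. The median log2 difference of brain against liver over the 9 genes was -6.74 in the wild type and -6.80 in the knockout, beside 0.21 and 0.21 over all genes. The median was also taken from counts summed over each group on library totals, with a gene without brain reads set to 3 counts over the 3 brains. This gave -5.91 and -5.94, beside 1.05 and 1.07. In bulk tissue, fewer cells of a type and less RNA per cell cannot be told apart.

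The mitochondrial entry steps were nearly without reads in brain. Cps1 had 11, 6 and 5 counts in wild-type brain replicates 1, 2 and 3 and 9, 9 and 11 in knockout brain, against at least 71734 in any liver. On library totals, wild-type liver was 9590-fold above wild-type brain (95% Poisson interval of the brain count, 6340 to 15300), and the ratio in the knockout was 5980 (4160 to 8920). Otc had 0 counts in all 6 brains and 6647 to 9665 in the livers. Against a floor of 3 counts over the 3 brain libraries of a genotype, Otc was at least 5890-fold higher in wild-type liver and at least 5110-fold higher in knockout liver. Nags had 0 counts in the 3 wild-type brains and 0, 1 and 1 in the knockout brains, against 602 to 943 in liver, which is at least 564-fold higher in wild-type liver and 712-fold (197 to 5880) in knockout liver. These intervals and floors cover counting error only.

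The middle of the cycle and its carriers were low in brain but present in every library. Ass1, which also serves the recycling of citrulline to arginine, was at 10.8, 14.9 and 16.3 TPM in wild-type brain and 12.6, 17.6 and 11.6 TPM in knockout brain, with a log2 difference from liver of -8.09 ± 0.31 (SE) in the wild type and -7.94 ± 0.32 in the knockout. Asl, the next enzyme, was at 3.03 to 4.08 TPM over the 6 brains, with log2 differences of -5.65 ± 0.14 and -5.65 ± 0.27. Both genes are needed to turn citrulline into arginine. The ratio of Ass1 to Asl per length was 20.6 ± 4.08 in wild-type liver and 3.86 ± 0.762 in wild-type brain (SD, n = 3), and the ratios of the 2 tissues did not overlap in either genotype. The ornithine carrier Slc25a15 was at 3.62 to 5.40 TPM in brain, with log2 differences of -5.52 ± 0.17 and -5.59 ± 0.18. Citrin (Slc25a13) was at 1.63, 1.16 and 3.26 TPM in wild-type and 1.86, 1.67 and 1.69 TPM in knockout brain, so wild-type replicate 3 stood above the other 5. Its log2 differences were -6.74 ± 0.36 and -6.80 ± 0.18. Gls2 had the smallest difference of these 5 genes, at -4.48 ± 0.22 and -4.35 ± 0.18. The largest edgeR adjusted p of these 5 genes in either genotype was 1.32e-06. Reads of Ass1 were shared with Gm5424, a processed pseudogene on chromosome 10 (62071123 to 62072362, GRCm38): the 2 counts summed to a whole number within 0.02 in 12 of 12 libraries, and Gm5424 held 0% to 4.68% of the sum.

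Glutamine synthetase was the exception. Glul was at 689, 889 and 881 TPM in wild-type brain and 703, 914.5 and 704.5 TPM in knockout brain, above every liver library, which ran from 405 to 516 TPM. By the edgeR fit with TMM scaling it was nevertheless called lower in brain, with log2 differences of -0.57 ± 0.14 (SE, adjusted p = 0.00609) in the wild type and -0.75 ± 0.16 (adjusted p = 0.00337) in the knockout. With library totals as the scale the edgeR values turned to 0.27 (adjusted p = 0.110) and 0.13 (adjusted p = 0.471). The median edgeR value of all genes moved from 0.21 to 1.05 in the wild type and from 0.21 to 1.085 in the knockout. Relative to the median gene, Glul in wild-type brain lay at -0.78 under TMM, -0.78 under library totals and -0.77 in TPM, and in knockout brain at -0.96, -0.96 and -0.95. The direction for Glul therefore rests on the scale. By TPM in wild-type brain Glul was followed by Ass1 at 14.0 ± 2.83 and Gls2 at 11.0 ± 0.322, which overlapped, then by Slc25a15 at 4.60 ± 0.736 and Asl at 3.63 ± 0.392, which also overlapped. Slc25a13 at 2.02 ± 1.10 and Cps1 at 0.184 ± 0.0774 TPM came last among the genes tested in brain (SD, n = 3). With the longest transcript as the length, Asl was at 6.00, 7.18 and 6.10 TPM and Slc25a15 at 5.07, 4.40 and 6.05 TPM. The order of these genes in brain therefore depends on the length used. Glul ranked at place 50 among all genes by mean TPM in wild-type brain and at place 151 in wild-type liver. For each Cps1 transcript per length, wild-type liver held 0.384 ± 0.0264 Glul transcripts (SD, n = 3), and knockout liver held 0.467 ± 0.0890, with overlapping values. Read counts of Glul were not whole numbers in any library, and 93 bases of its exons are also annotated as Mir8114 on the same strand. On the opposite strand, exons of Nags share 443 bases with Gm11586, those of Glul 116 with Teddm2 and those of Gls2 97 with Spryd4, and reads of such partners cannot be told apart unless strand was used in counting.

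Several enzymes have a paralog with another tissue distribution, and 3 of the pairs read here (Slc25a13 and Slc25a12, Cps1 and Cad, Car5a and Car5b) crossed over between tissues. Aralar (Slc25a12), the second aspartate-glutamate carrier, was at 39.3 ± 4.21 TPM in wild-type brain and 2.83 ± 0.579 TPM in liver (SD, n = 3), with a log2 difference of 2.37 ± 0.18 (SE, edgeR adjusted p = 8.42e-06). Citrin exceeded aralar by 29.6 ± 9.33-fold in wild-type liver, whereas aralar exceeded citrin by 13.4-fold to 33.5-fold in wild-type brain. Cad, which holds the carbamoyl phosphate synthetase of pyrimidine synthesis, was at 5.95 ± 0.763 TPM in wild-type brain and 3.13 ± 0.536 TPM in wild-type liver, so that it exceeded Cps1 in every brain and lay 174-fold to 470-fold below Cps1 in the livers. Under TMM its log2 difference was -0.49 ± 0.18 (SE, edgeR adjusted p = 0.0360). With the replicate block the edgeR adjusted p of Cad was 0.0605, which ended the call. With library totals as the scale its sign turned, to 0.35 ± 0.18 (edgeR adjusted p = 0.105), so the direction for Cad between tissues also rests on the scale. The mitochondrial carbonic anhydrase Car5a, which supplies bicarbonate to Cps1, had 586 to 817 counts in the livers and at most 2 in any brain, whereas its paralog Car5b had 34 to 102 counts in the brains and 56 to 97 in the livers. Per length, Car5a was 45.1-fold to 63.6-fold above Car5b in wild-type liver and at most 0.136 of it in wild-type brain. The liver fold is smaller with the longest transcript as the length. Car5a was then at 40.8, 32.2 and 33.3 TPM and Car5b at 1.56, 0.874 and 1.11 TPM in wild-type liver. Slc25a2, a second ornithine carrier, had 5 to 25 counts in the brains and 5 to 14 in the livers. Knockout libraries gave the same order as the wild type within each pair that crossed.

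**Figure D2:**
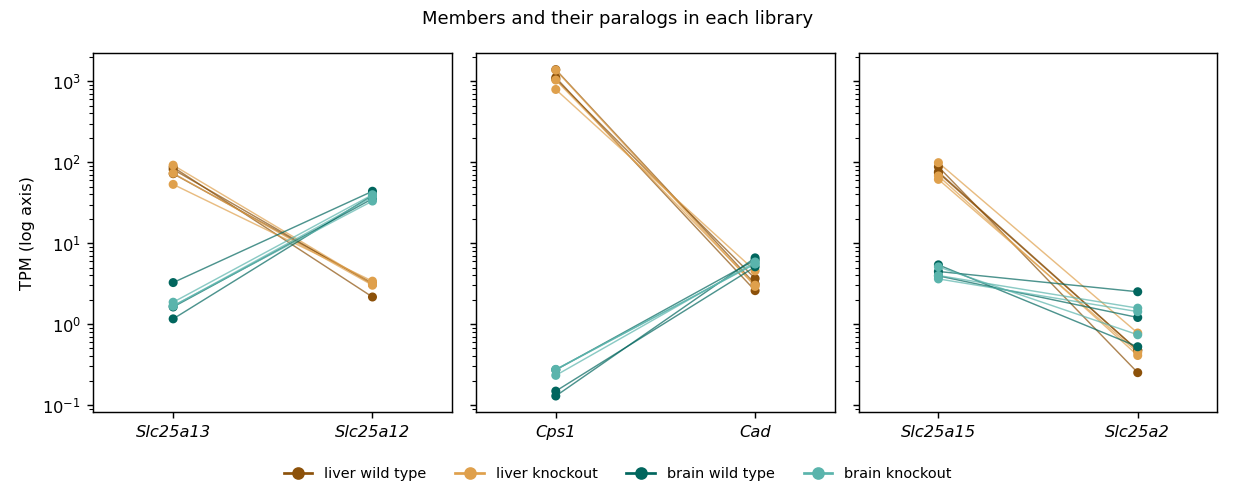
TPM (log axis) of 3 of the genes and a paralog of each, joined by a line for each of the 12 libraries. Lines from liver fall from Slc25a13 and Cps1 to the paralog and lines from brain rise, so these pairs cross, while Slc25a15 lies above Slc25a2 in every library.

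The surrounding nitrogen pathways were read from lists of related genes. All 11 tested genes of amino acid breakdown (such as Hal, Sds and Tat) were called higher in liver in both genotypes. Not all of their enzymes free ammonia themselves. The median fitted log2 difference of brain against liver was -11.48 in the wild type and -13.64 in the knockout. These fitted medians are no bound, because 3 of the genes had no reads in the wild-type brains (Agxt, Tat and Uroc1) and 4 had none in the knockout brains (Agxt, Hpd, Sds and Uroc1). On library totals, with such genes set to 3 counts over the 3 brains, the medians were -10.67 and -10.47, beside 1.05 and 1.07 over all genes. Of 14 other ammonia, glutamate and aspartate enzymes, 10 were called higher in liver and 3 in brain among the wild types (9 and 4 with library totals, where Sirt5 was no longer called and Got1 was called higher in brain). Glutamate dehydrogenase (Glud1), which frees ammonia from glutamate, was at 358 ± 15.2 TPM in wild-type liver and 94.4 ± 14.7 TPM in brain. Nitrogen transporters split evenly among the wild types, with 6 of 12 called in each direction under both scales. In the knockout the 6 and 6 became 6 higher in brain and 4 in liver with library totals, where Slc38a2 and Slc25a22 were no longer called. The glutamate transporter Slc1a2 was at 756 ± 187 TPM in wild-type brain and 29.0 ± 3.68 TPM in liver. Over all genes tested, 43.9% were called higher in brain in the wild type and 43.5% in the knockout (61.7% and 62.1% with library totals). Called higher in liver were 34.7% and 35.2% (21.2% and 20.6% with library totals). Of 8 known regulators of urea cycle genes, 7 were called higher in liver among the wild types, and 6 with library totals, where the log2 difference of the glucocorticoid receptor Nr3c1 turned from -0.62 to 0.22 (edgeR adjusted p = 0.108). Another of them, Cebpa, was at 201 ± 10.2 TPM in wild-type liver and 4.78 ± 1.298 TPM in brain. The arginine and citrulline users were mixed, with 2 of 7 called higher in brain and 4 higher in liver among the wild types. With library totals these were 3 and 3, since Odc1, which makes putrescine from ornithine, went from -0.85 to -0.01 and lost its call, and Nos3 was called higher in brain.

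Loss of Vaultrc5 was then compared with the wild type in liver. None of the 9 genes was called, and 0 of the 15329 genes tested had an edgeR adjusted p under 0.05 (0%), while 536, or 3.50%, had an unadjusted p under 0.05. No member was among the latter. Over all genes, the DESeq2 Wald test called 10 and the edgeR fit with the replicate block called 2, with no member among them. Cps1 was at 4703, 3651 and 3699 CPM among wild types and 3528, 3050 and 4267 CPM among knockouts, for liver replicates 1, 2 and 3 in turn. The groups overlapped, and the log2 fold change of -0.15 ± 0.18 (SE) had a 95% interval of -0.58 to 0.27. Ass1 was at 2732, 1607 and 1909 CPM among wild types and 2045, 1397 and 2235 CPM among knockouts. Here replicate 2 was the lowest of each genotype, and the log2 fold change was -0.14 ± 0.25, with an interval of -0.72 to 0.44. Asl, at 217, 182 and 203 CPM in the wild type, was spread wider in the knockout at 141, 144 and 253 CPM. Its coefficient of variation, computed on TPM, was 9.79% in wild-type and 45.5% in knockout liver, a difference that was not tested. Otc at 283 to 356 CPM, Slc25a15 at 234 to 311 CPM and Slc25a13 at 140 to 198 CPM over the 6 livers had intervals within -0.45 to 0.27. These SE and intervals are from the fit without the replicate block. With the block, the log2 fold changes were -0.16 ± 0.17 for Cps1, -0.13 ± 0.16 for Ass1, -0.21 ± 0.18 for Asl and -0.07 ± 0.12 for Otc. They were -0.06 ± 0.14 for Slc25a15, -0.10 ± 0.09 for Nags and -0.08 ± 0.15 for Gls2. The smallest unadjusted edgeR p of the 9 genes with the block was 0.163, for Slc25a13.

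**Figure D3:**
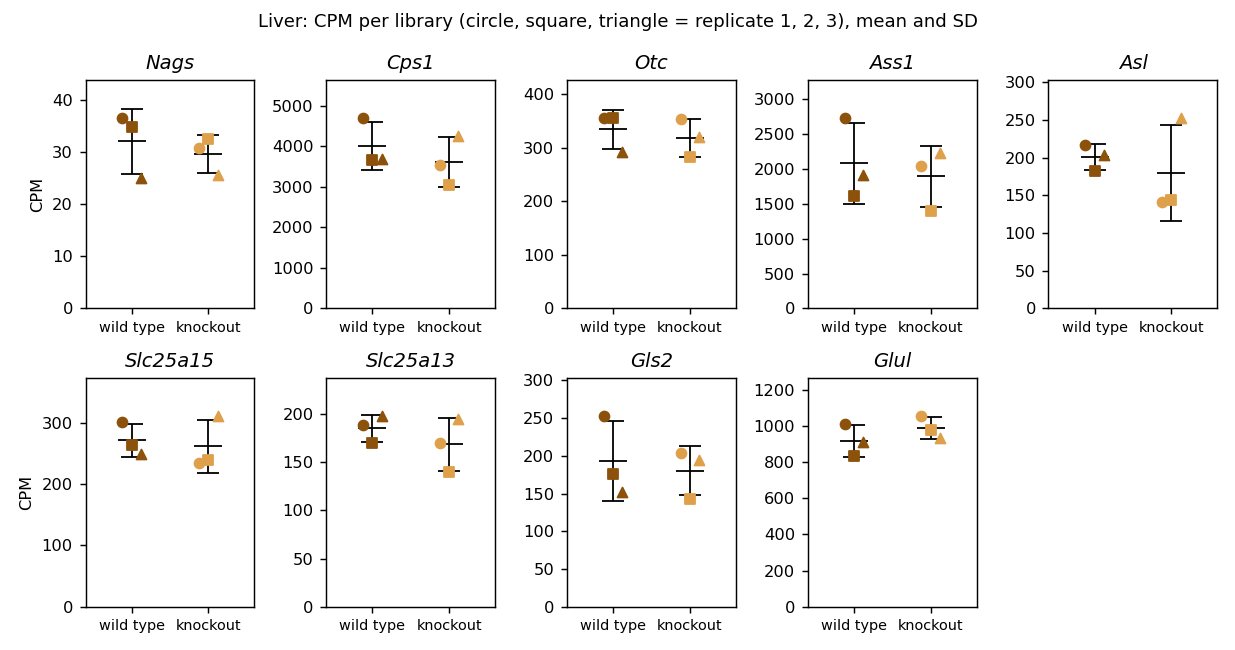
CPM of each gene in the 3 wild-type and 3 knockout livers (axes from 0; circle, square and triangle are replicates 1, 2 and 3), with the mean and SD. The genotypes overlap for all 9 genes, and knockout points of Asl span 141 to 253 CPM.

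The log2 fold changes in liver lay between -0.16 for Asl and 0.11 for Glul, and 8 of the 9 were below 0, where 48.7% of all genes tested were. Several of these genes were high or low together from library to library. Across the 6 livers the Pearson r of log2(CPM + 1) of Cps1 was 0.92 with Ass1, 0.87 with Slc25a15, 0.82 with Asl, 0.81 with Gls2 and 0.79 with Slc25a13, but 0.52 with Otc, 0.06 with Glul and 0.03 with Nags. Such values, over 6 libraries that share the sequencing pool, are a description. Knockout replicate 2 was the lowest of the 6 livers for 5 of the 9 genes (Cps1, Otc, Ass1, Slc25a13 and Gls2), and it was the lowest for 21.9% of all genes tested. It was also the highest for 23.7% of all genes, and both shares were the largest of the 6 livers. In the same library Alb was lowest, at 30370 CPM beside 38230 to 54530 in the others, and the 4 Kupffer cell markers were each highest and summed to 258 CPM, beside at most 137 in the others. The part of this in the members' values was not tested. Knockout replicate 1 was lowest for Asl and Slc25a15. Wild-type replicate 1 was the highest for 4 genes, Cps1, Ass1, Nags and Gls2, and for 17% of all genes. With knockout replicate 2 left out, the log2 fold changes of Otc, Ass1, Slc25a15 and Gls2 turned above 0, and those of Ass1, Slc25a15 and Gls2 did so without wild-type replicate 1. Without knockout replicate 1, that of Slc25a15 was above 0. Nags was at 36.5, 34.7 and 24.9 CPM in wild-type and 30.7, 32.6 and 25.6 CPM in knockout libraries, with replicate 3 the lowest of each genotype. Its log2 fold change was -0.11 ± 0.16. The genes most like Cps1 over the 6 livers, among 7599 with a mean of at least 10 CPM, were Hgd (r = 0.996), Hoga1 (0.993) and Adh5 (0.988), and those most like Glul were Cast (0.978), Aes (0.958) and Med25 (0.957).

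**Figure D4:**
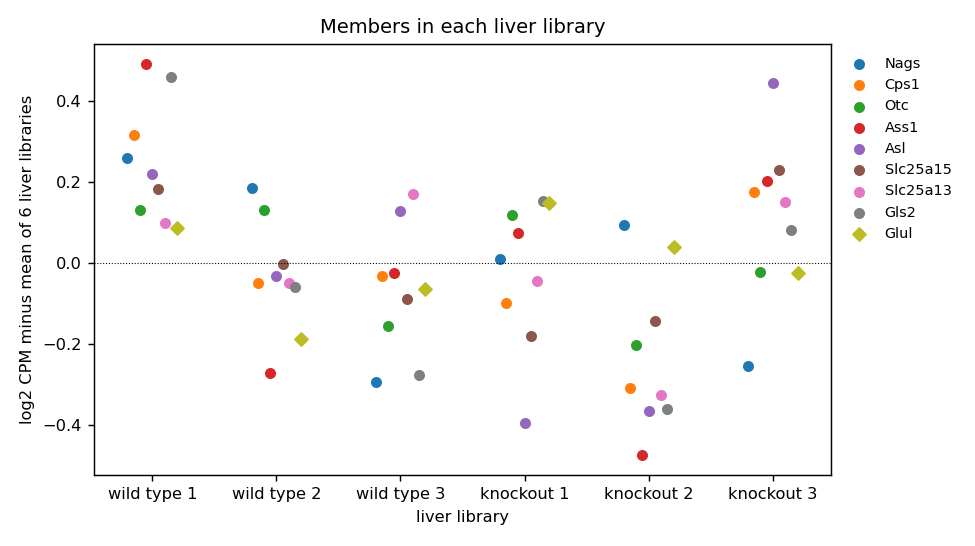
Log2 CPM of each gene minus its mean over the 6 livers, by library. Most genes sit above 0 in wild-type replicate 1 and knockout replicate 3 and below 0 in knockout replicate 2, while Nags and Glul (diamonds for Glul only) are above 0 there.

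Glul and Gls2 mark opposite ends of the liver lobule. Glul was at 1009, 835 and 910 CPM among wild types and 1054, 977 and 936 CPM among knockouts, with overlapping groups and a log2 fold change of 0.11 ± 0.12 (SE, interval -0.18 to 0.40). Within the 3 same-numbered liver pairs Glul was higher in the knockout in each, as were 15% of all genes tested, and Slc25a13 was lower in each, as were 13.8%. With the replicate block their log2 fold changes were 0.11 ± 0.12 (edgeR unadjusted p = 0.388) and -0.15 ± 0.09 (edgeR unadjusted p = 0.163), neither called. Gls2 was at 253, 176 and 152 CPM among wild types and 204, 143 and 194 CPM among knockouts, with a log2 fold change of -0.10 ± 0.22 (interval -0.62 to 0.42). Markers of the zones gave no call either: 0 of 8 periportal genes, with a median log2 fold change of 0.09, and 0 of 10 pericentral genes, with a median of -0.07, beside 0.01 over all genes. The summed periportal markers ran from 3778 to 5099 CPM among wild types and from 4261 to 5233 CPM among knockouts, and the pericentral ones from 5514 to 6786 and from 4625 to 6498 CPM. Most of the pericentral sum was Cyp2e1, with means of 4964 and 4256 CPM. Hepatocyte markers summed to 53270 to 67260 CPM among wild types and 44810 to 69660 CPM among knockouts. Most of this sum was Alb, with means of 46700 and 41050 CPM. Of the 5 hepatocyte markers, 3 had a fitted log2 fold change below 0 (median -0.07). The 4 Kupffer cell markers were all above 0 (median 0.51), with sums of 101 to 135 CPM among wild types and 112 to 258 CPM among knockouts. The 3 endothelial markers were above 0 (median 0.16; sums of 140 to 173 and 159.5 to 178 CPM), as were the 3 red cell markers (median 0.54; 78.9 to 112 and 99.95 to 117 CPM) and the 3 cholangiocyte markers (median 0.30; 8.52 to 11.7 and 6.29 to 15.4 CPM). The 3 stellate cell markers were below 0 (median -0.14; 214 to 249.2 and 182 to 261 CPM). None of these was called, and Adgre1, Pecam1 and Hbb-bs had an unadjusted edgeR p of 0.0410, 0.00421 and 0.0349 (adjusted p = 0.992 each). Pecam1 and Hbb-bs were higher in the knockouts without overlap in CPM or TPM, as 4.72% of all genes tested were in CPM. So was P2ry12 (edgeR unadjusted p = 0.0190) of the 3 microglia markers, all of which were above 0 in liver (median 1.035) and not called. The part of these cell types in the results was not tested.

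Among the 72 genes on the lists of related pathways and zone markers, 66 were tested in liver and 0 were called. The median log2 fold change was 0.215 for the 5 tested paralogs, -0.14 for 14 ammonia, glutamate and aspartate enzymes, 0.06 for 9 transporters and -0.07 for 11 genes of amino acid breakdown. It was 0.08 for 6 arginine and citrulline users and 0.03 for 8 regulators, beside 0.01 over all genes. An unadjusted edgeR p under 0.05 was found for 4 of them, or for Prodh2, Cebpa, Agxt and, named after its values were seen, Gatm, beside 3.50% of all genes. Prodh2, a hydroxyproline dehydrogenase, averaged 93.7 ± 8.86 CPM without and 72.3 ± 6.60 CPM with the knockout (SD, n = 3). The fitted log2 fold change was -0.37 ± 0.11 (SE, edgeR unadjusted p = 0.00810). Cebpa, a liver transcription factor known to act on urea cycle genes, was at 323 ± 16.6 and 258 ± 12.6 CPM, with -0.32 ± 0.10 (edgeR unadjusted p = 0.0103). Agxt, a peroxisomal aminotransferase, was at 139 ± 8.66 and 114 ± 14.6 CPM, with -0.29 ± 0.11 (edgeR unadjusted p = 0.0379). Gatm, which uses arginine to make the precursor of creatine, was at 9.30 ± 0.815 and 11.2 ± 0.522 CPM, with 0.26 ± 0.11 (edgeR unadjusted p = 0.0475). The genotypes did not overlap in CPM for any of these 4 genes, in TPM they overlapped for all but Cebpa, and none passed after adjustment over all genes (adjusted p = 0.992 each). Of the other related genes tested in liver, Amt, Agmat and Gcgr were also lower in the knockouts without overlap in CPM, and overlapped in TPM. Among all genes tested, 4.72% were higher and 5.12% lower in all 3 knockouts than in all 3 wild types in CPM.

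In brain, 7 of the 9 genes had enough reads for the test, and Otc and Nags did not. Of the 7, 4 had a log2 fold change below 0, where 51.7% of all genes did. None was called, nor was any of the 18075 genes tested (0%); 0.675% of these had an unadjusted edgeR p under 0.05, and no member was among them. The DESeq2 Wald test also called 0. Glul was at 990, 1182 and 1188 CPM in wild-type brain and 914.5, 1250 and 1037 CPM in knockout brain, with overlapping groups. The log2 fold change was -0.07 ± 0.15 (SE), within an interval of -0.42 to 0.28. Its most similar genes over the 6 brains, among 10359, were Gng12 (r = 0.995), Samd5 (0.994) and Hacd2 (0.992). Gls2, which frees ammonia from glutamine, was at 16.1, 15.8 and 15.4 CPM in wild-type and 14.97, 16.98 and 16.24 CPM in knockout libraries, with a log2 fold change of 0.03 ± 0.10 and an interval of -0.22 to 0.27. Asl was at 7.02, 7.88 and 6.78 CPM in wild-type and 6.46, 6.39 and 6.48 CPM in knockout libraries. Among the 7, only Asl had groups that did not overlap in CPM, and in TPM they overlapped (3.36 to 4.08 among wild types and 3.03 to 3.42 among knockouts); 2.48% of all genes tested were separated in CPM in this direction and 1.74% in the other. Its log2 fold change of -0.16 ± 0.14 was not called (edgeR unadjusted p = 0.278). Cps1, with 5 to 11 counts a library, had a log2 fold change of 0.50 ± 0.44 and a 95% interval of -0.55 to 1.54. Ass1 had 0.01 ± 0.20 and Slc25a15 -0.12 ± 0.17. Slc25a13 had -0.20 ± 0.39, which turned to 0.30 without wild-type replicate 3, the library with 86 counts beside 32 to 46 in the others.

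**Figure D5:**
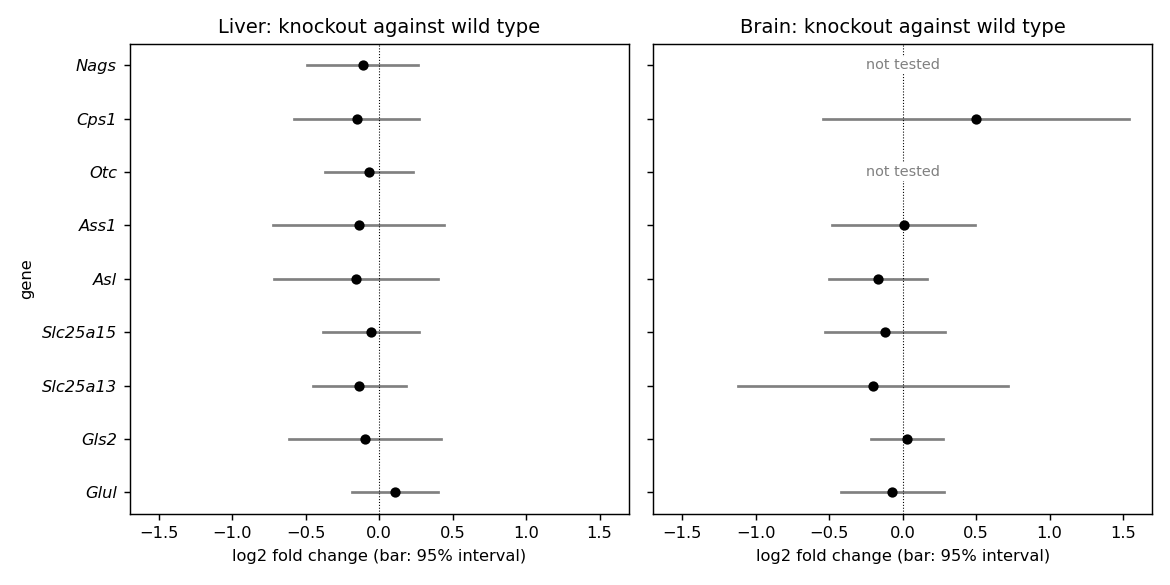
Log2 fold change of knockout against wild type for each gene with its 95% interval, liver on the left and brain on the right. All intervals include 0, and Nags and Otc had too few reads for the test in brain.

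Oligodendrocyte markers (Mbp and Mog) summed to 1011 to 3501 CPM among wild types and 1152 to 1844 CPM among knockouts, and choroid plexus markers to 4.30 to 43.0 and 5.38 to 47.3 CPM. The 5 astrocyte markers, which bear on Glul, summed to 597 to 1023 CPM among wild types and 611 to 877 CPM among knockouts. Of these 5, 4 had a fitted log2 fold change below 0, with a median of -0.36 beside -0.01 over all genes, and Mbp and Mog were both below 0 (median -0.57). None of these markers was called, and the smallest unadjusted edgeR p was 0.195 for Gfap among the astrocyte markers and 0.223 for Mog. The endothelial marker Pecam1 was at 12.5 to 13.6 CPM among wild types and 16.6 to 19.8 CPM among knockouts, without overlap in CPM or TPM (log2 fold change 0.46 ± 0.12, edgeR unadjusted p = 0.00612, adjusted p = 1.0). In CPM, 1.74% of all genes tested were separated in this direction. Stab2, the only other endothelial marker tested in brain, went the other way, with a log2 fold change of -0.23 and 0.473 to 0.717 CPM over the brains. The part of these cells in the Glul values was not tested. Of the related genes, 49 were tested in brain and 0 were called, with 1 at an unadjusted edgeR p under 0.05. This was the glutamine transporter Slc38a5, at 1.63 ± 0.501 CPM without and 3.175 ± 1.245 CPM with the knockout (SD, n = 3; log2 fold change 0.97 ± 0.38, edgeR unadjusted p = 0.0404). Next came Slc25a18, a mitochondrial glutamate carrier, at 33.4 ± 2.34 and 28.7 ± 1.16 CPM (-0.22 ± 0.09, edgeR unadjusted p = 0.0506), and the nitric oxide synthase Nos3, with 0.35 ± 0.22 (edgeR unadjusted p = 0.157).

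Whether the knockout effect differed between liver and brain was tested over all 12 libraries. Of 20141 genes, 0 were called (0%) and 2.43% had an unadjusted edgeR p under 0.05. The DESeq2 Wald test called 1 gene and the fit with the replicate block 2, none of them a member. For the 7 genes tested in both tissues the difference, liver minus brain, ran from -0.67 ± 0.40 (SE) for Cps1 to 0.16 ± 0.20 for Glul, and the smallest unadjusted edgeR p of these 7 was 0.125. Nags and Otc passed the filter over 12 libraries, and Nags had the smallest unadjusted edgeR p of the 9 genes (0.0776), with a fitted difference of -2.72 ± 1.23 that rests on 0 to 1 counts per brain library and is no bound. The Cps1 value rests on 5 to 11 counts per brain library. The interval for Glul, -0.29 to 0.61, and that for Ass1, -0.94 to 0.61, bound what these libraries can show.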

How the data were processed

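Total RNA was sequenced from brain and liver of wild-type and Vaultrc5 knockout mice, 3 libraries per group. Per the labels' protocols, TRIzol extraction was followed by DNase; the RNA was then depleted of ribosomal RNA and made into stranded ligation libraries, which were pooled and sequenced single-end. The deposited table gives the authors' expected counts, without normalization, and 5.06% to 5.71% of each library's entries were not whole numbers. The submitters' processing notes name cutadapt, STAR and mm10; the program that counted reads, and whether it used strand, are not given in the sources used here. All 55450 gene identifiers and symbols matched GENCODE M21, from which lengths and coordinates were taken.

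Expected counts were rounded and tested with edgeR 4.0.16 (R 4.3.3; quasi-likelihood F-test, robust, TMM, filterByExpr with a minimum count of 10 and total of 15), Benjamini-Hochberg adjustment over all genes tested and a threshold of 0.05. Each 2-group comparison was fitted on its own 6 libraries and the interaction on all 12. Standard errors are the absolute log2 fold change over the square root of F, and intervals (95%) use the t quantile of the fit. CPM use TMM sizes within a tissue; TPM use library values and exon lengths. The fits were also run on simulated counts drawn without replicate structure. That run cannot show how they behave where same-numbered libraries deviate together.

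Same-numbered wild-type and knockout livers deviated together (correlations over 9437 genes of 0.37, 0.42 and 0.42 for replicates 1, 2 and 3). The titles' numbers may thus pair the livers, but the labels state no pairing. In brain the values were 0.79, 0.75 and -0.05, so replicates 1 and 2 deviated with their numbers and replicate 3 did not. The main fits leave the replicate number out, and the replicate block is an alternative. This block lowered the common dispersion from 0.0434 to 0.0230 in liver and from 0.0587 to 0.0184 in brain. Alternatives were other scalings, filters and tests (DESeq2 1.42.0), the replicate block and leaving out each library. The genes described are named in every comparison, with their paralogs and, where no related gene was called, the 3 with the smallest unadjusted p; the genes and lists were chosen with earlier results of these data known. Similar genes are the 3 with the highest r. Of the 10 genes chosen, 1 is not reported here, nor are some genes of the related lists, and counts and medians were computed without them.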

Additional observations from a re-analysis of the deposited data

How the results depend on the processing

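No member was called in either knockout comparison or in the interaction under any alternative run, and 8 of 9 (library totals) or 9 of 9 were called between tissues in each. The number of genes called in liver rose from 0 to 10 with the DESeq2 Wald test, 4 with no filter beyond 1 count and 2 with the replicate block, and ran from 0 to 1 with 1 library left out (1 without wild-type replicate 2). The interaction gave 1 gene with the DESeq2 Wald test and 2 with the replicate block. The cause was not tested. Besides these counts, the block ended the tissue call of Cad in the wild type and made one of Asns in the knockout (adjusted p = 0.0451, from 0.215), and it changed no other call of a member or related gene. Between genotypes, livers deviated together by their numbers, and in brain only replicates 1 and 2 did. With the block, 2.25% of genes tested in brain had an unadjusted edgeR p under 0.05, beside 0.675% without it. The smallest such p with the block among the members tested in brain was 0.293, for Asl.

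With library totals, Glul in brain against liver turned to 0.27 in the wild type and 0.13 in the knockout. In the interaction, Asl turned to 0.0084 with DESeq2 size factors and 0.0086 with the DESeq2 Wald test, and Slc25a13 to -0.022 with the replicate block. With 1 library left out, the liver log2 fold changes ran from -0.16 to 0.0087 for Otc, -0.30 to 0.11 for Ass1, -0.20 to 0.025 for Slc25a15 and -0.25 to 0.14 for Gls2. In brain they ran from -0.18 to 0.12 for Ass1, -0.48 to 0.30 for Slc25a13, -0.19 to 0.030 for Glul and -0.0016 to 0.077 for Gls2. In the interaction they ran from -0.32 to 0.079 for Ass1, -0.33 to 0.12 for Asl, -0.086 to 0.17 for Slc25a15, -0.43 to 0.34 for Slc25a13 and -0.29 to 0.088 for Gls2. Depth limits Otc, Nags and Cps1 in brain, where no library held more than 11 counts of any of them.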
